A study of Caenorhabditis elegans with 35 samples.

Results

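Genetically wild-type Caenorhabditis elegans whose ancestors were wdr-5 mutants, labelled +/+ (from wdr-5) and called descendants here, were compared with wild-type animals of wild-type ancestry, labelled +/+ (from +/+) and called controls. Both generations were pooled, and 1 ancestry difference common to F4 and F5 was asked for. All 11 descendant arrays and all 12 control arrays were used, which are 23 of the 35 arrays. The other 12 arrays are homozygous wdr-5 mutants (wdr-5/wdr-5) of F4 and F5. The arrays were assigned by their titles, and no measured value enters the rule.

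RNA came from whole L3 larvae, the third larval stage, and each array carries its generation and 1 of 2 birth days in the labels. F4 gave 6 descendant and 6 control arrays, and F5 gave 5 descendant and 6 control arrays. Replicates 1 to 3 belong to birth day 1 and replicates 4 to 6 to birth day 2, which makes 4 blocks of generation and birth day. Each block held 3 controls and 3 descendants, except F5 birth day 1 with 2 descendants. The controls carry no mutant ancestry in the labels, and the labels name neither the wdr-5 allele nor how many generations separated a descendant from its last mutant ancestor. Nor do they say whether arrays of a group came from separate cultures, so the p-values measure only the spread between these RNA samples.

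WDR-5.1 is a WD-repeat subunit of the COMPASS complexes, in which SET-2 is the main methyltransferase and ASH-2 a core subunit, and which methylate lysine 4 of histone H3 (H3K4) at active promoters. RBR-2 and LSD-1 family demethylases remove the mark. In worms, loss of these methyltransferase subunits lengthens life, and genetically wild-type descendants of such mutants are known to keep longer life for some generations. The comparison asks whether those descendants also share a difference in transcript levels.

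Levels are log2 array intensities, 1 value per probe set, and a difference is descendants minus controls on that scale. Arrays of the same group and block correlated at r = 0.973 to 0.9971 across probe sets. The lowest values differed between birth days, with a 5th percentile of 3.04 to 3.23 on day 1 and 4.12 to 4.21 on day 2, so each block had its own term in the fit. The transcript wdr-5.1 ran from 8.30 to 8.88 (median 8.58, n = 12) in controls, from 8.37 to 8.78 (median 8.63, n = 11) in descendants and from 4.01 to 5.91 (median 4.83, n = 12) in mutants. Descendants and controls overlapped and all mutant arrays lay lower. This checks the mutant label only, since descendants and controls are both wild type at the gene. The 3 F4 descendant arrays of birth day 1 stood apart from the other wild-type arrays of that day in several genes described below, and values without that block are given beside results that it moves. The block was singled out from these same values. The F4 blocks often differed in opposite directions, so values without F4 birth day 1 lean towards F4 birth day 2 and are not corrected effects. Gene and list values with F4 birth day 2 left out instead are not given here.

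No transcript passed the test for an ancestry difference common to F4 and F5. Of 20806 probe sets, 0 rose (0%) and 0 fell (0%) in descendants, by limma with Benjamini-Hochberg adjustment at a threshold of 0.05, and the smallest adjusted p was 0.9954. An unadjusted p under the threshold was found for 919 probe sets, or 4.42%. Common differences were small, with a standard deviation of 0.059 over all probe sets and a median standard error of 0.052. Within blocks the standard deviations were 0.22 and 0.19 in F4 birth days 1 and 2, and 0.11 and 0.10 in F5. The differences of the 2 F4 blocks correlated at r = -0.616 across probe sets, so opposite differences offset each other in the common value. For 91.7% of probe sets the 95% confidence interval lay inside ±0.25 log2, and for 99.6% it lay inside ±0.5, a 1.41-fold change either way. These intervals are for the common difference and do not bound the difference within a block. Without the F4 birth day 1 block, 0 probe sets were called over the remaining 17 arrays, 1712 had an unadjusted p under the threshold (8.23%) and the smallest adjusted p was 0.082.

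**Figure D1:**
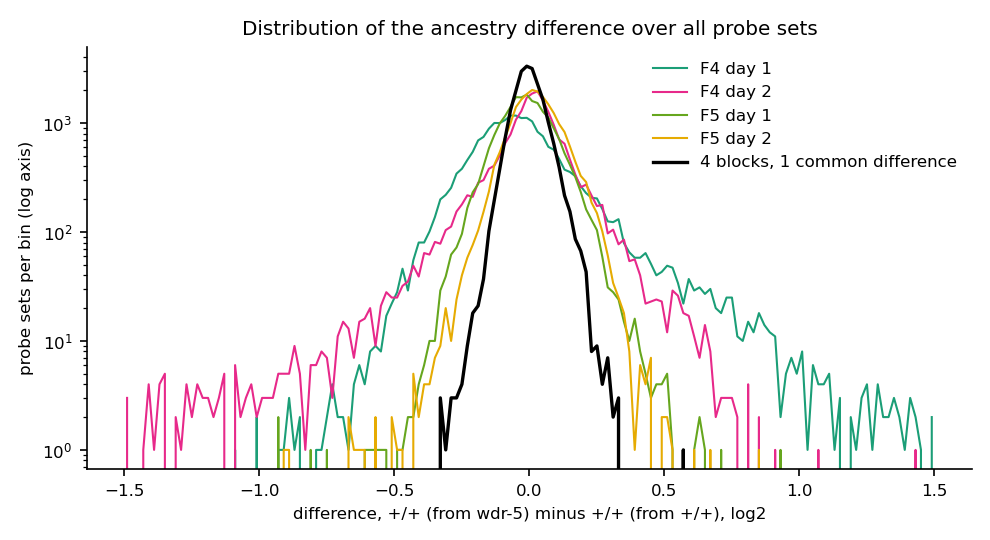
Number of probe sets (log axis, bins of 0.02) by difference in level between descendants and controls (log2). Coloured lines give each block of generation and birth day and the black line gives the difference common to all 4 blocks, which is the narrowest, with a standard deviation of 0.059. Differences beyond ±1.5, in 29 probe sets, are not drawn.

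No transcript of the H3K4 enzymes passed the threshold, and values are given over all 23 arrays unless the block left out is named. The wdr-5.1 difference was -0.017 ± 0.045 (SE), with a 95% interval from -0.11 to 0.076. Its paralogs wdr-5.2 and wdr-5.3 differed by 0.015 ± 0.047 (SE) and -0.025 ± 0.10 (SE). The methyltransferase gene set-2 differed by -0.0089 ± 0.058 (SE), ash-2 by 0.021 ± 0.052 (SE) and the demethylase gene rbr-2 by -0.0010 ± 0.050 (SE). None of these 6 genes passed the threshold, with adjusted p of 0.9954 or more in limma. Of the 19 measured genes of the H3K4 machinery 0 rose, 0 fell and 1 had an unadjusted p under the threshold, and the median difference was -3.3e-05, beside -0.0062 over all 17241 genes. That member was the demethylase gene lsd-1, at 0.14 ± 0.061 (SE). The next in p was utx-1, at 0.074. Of the 19 genes, 3 (15.8%) had a difference above 0 in all 4 blocks and 0 had one below 0 in all 4, beside 3.53% and 4.23% of all genes. Without F4 birth day 1, wdr-5.3 differed by -0.16 ± 0.10 (SE), set-2 by -0.093 ± 0.058 (SE) and rbr-2 by -0.065 ± 0.049 (SE), which exceed their standard errors and did not pass.

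Other chromatin and small RNA genes gave the same count of 0. Of 19 further histone methylation and heterochromatin genes 0 passed, and the members of smallest p were jmjd-1.2, a histone demethylase gene, at -0.092 ± 0.043 (SE), and the Polycomb methyltransferase gene mes-2 at 0.13 ± 0.059 (SE). Of 25 histone genes 0 passed, with a median of -0.015, and the H3.3 gene his-71 differed by 0.15 ± 0.075 (SE), and by 0.26 ± 0.080 (SE) without F4 birth day 1. Of 43 genes of small RNA pathways 0 passed, with a median of 0.018. The nuclear RNA interference factor nrde-2 differed by 0.12 ± 0.046 (SE) and rde-11, which acts in amplifying small RNAs, by -0.11 ± 0.047 (SE).

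Since no probe set passed, the genes of smallest p whose difference had the same sign in all 4 blocks are described, 10 in each direction, as values that did not pass. On the higher side stood 2 cuticle collagen genes, col-138 and col-73, and grl-16, a member of the hedgehog-related ground-like family. They also included ech-1.2, which encodes an enzyme of mitochondrial fatty acid oxidation, and nhl-1, an NHL-domain RING finger gene. The others were B0454.8, ZK180.6, F30H5.3, E01G4.6 and appg-1. The 10 differences ran from 0.10 to 0.33, with adjusted p = 0.9954 for each in limma.

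The level of col-138 ran from 10.08 to 11.76 (median 10.57, n = 12) in controls and from 10.34 to 11.83 (median 11.03, n = 11) in descendants. In F4 birth day 1 the controls read 10.52, 10.36 and 10.89 and the descendants 11.34, 11.19 and 11.01. In F5 birth day 2 the controls read 10.45, 10.63 and 10.71 and the descendants ran from 10.71 to 11.03. The groups did not overlap in the first of these blocks and met at 10.71 in the other, and they overlapped in the remaining blocks. The common difference of col-138 was 0.30 ± 0.070 (SE, unadjusted p = 2.70e-04), and 0.19 ± 0.061 (SE) without F4 birth day 1. In mutants its difference from the same controls was -0.0018 ± 0.19 (SE).

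The widest of the 10 differences was that of E01G4.6, with controls at 9.62 to 11.39 (median 10.54, n = 12) and descendants at 10.07 to 11.53 (median 10.91, n = 11). The common difference was 0.33 ± 0.085 (SE), and 0.23 ± 0.071 (SE) without F4 birth day 1. For nhl-1 the controls lay at 6.97 to 7.73 (median 7.31, n = 12) and the descendants at 7.12 to 7.94 (median 7.51, n = 11), a difference of 0.18 ± 0.047 (SE). Its descendants lay above every control of their block except in F4 birth day 2. Mutants differed from the same controls in the other direction, by -0.26 ± 0.059 (SE, adjusted p = 8.59e-04, limma). The values of the fatty acid oxidation gene ech-1.2 were 9.23 to 10.34 (median 9.70, n = 12) in controls and 9.46 to 10.44 (n = 11) in descendants, which overlapped, with a difference of 0.18 ± 0.046 (SE).

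F02C9.1, a gene whose function is not stated in the sources used here, was the only probe set of 20806 (0.00481%) with every descendant array below every control of its own block in all 4 blocks. No probe set had every descendant above (0%). The F4 birth day 1 controls read 4.68, 4.72 and 4.68 and the descendants 4.53, 4.61 and 4.50. In F5 birth day 2 they read 4.99, 5.00 and 4.94 against 4.79, 4.72 and 4.84. The separation was narrow in every block, and over both days together the groups overlapped, since controls of F4 birth day 1 lay lowest among controls. The common difference of F02C9.1 was -0.14 ± 0.031 (SE, unadjusted p = 1.31e-04, adjusted p = 0.9954, limma) and -0.14 ± 0.037 (SE) without F4 birth day 1. Mutants differed from these controls by 0.23 ± 0.044 (SE).

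**Figure D2:**
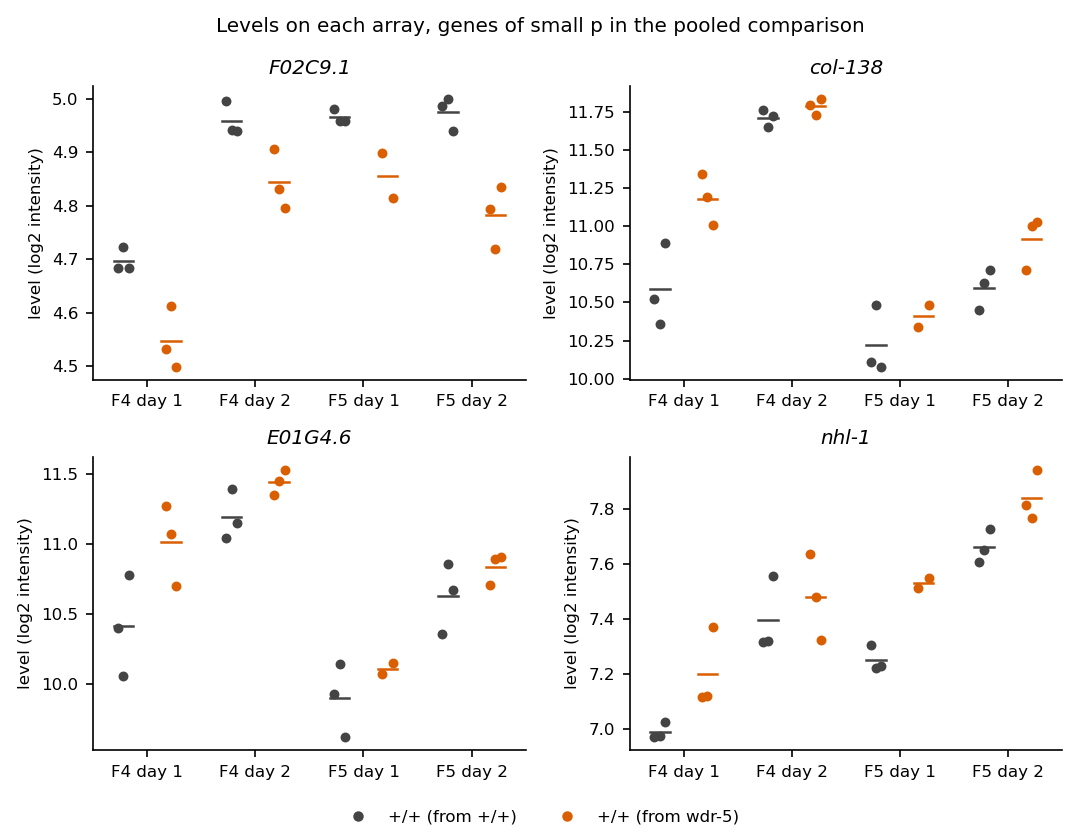
Level (log2 intensity, axes not starting at 0) of F02C9.1, col-138, E01G4.6 and nhl-1 on each control (grey) and descendant (orange) array, by generation and birth day. Bars give the mean of a group in a block. Only F02C9.1 has every descendant below every control in all 4 blocks.

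The other lower genes were Y66D12A.21, srv-10, a serpentine receptor gene, Y26D4A.5, F31F7.1, C49F5.3, cwf-19L1, M01E11.1, Y20C6A.3 and C07D10.1, with differences from -0.22 to -0.082. Y66D12A.21 ran from 6.53 to 7.36 (median 6.83, n = 12) in controls and from 6.48 to 6.77 (median 6.66, n = 11) in descendants, a difference of -0.22 ± 0.062 (SE). Over all blocks together the groups overlapped and the controls reached higher. The descendants lay below every control of their block except in F5 birth day 2. The probe sets of srv-10, Y26D4A.5, Y20C6A.3 and C07D10.1 were dim, below the 25th percentile of the array on 21 to 23 of the 23 arrays, where the signal limits what can be read.

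Gene lists were described by their counts and medians. In all 33 lists 0 members rose and 0 fell. Cuticle collagens, which build the larval exoskeleton, had the largest share of small p-values among the 33 lists. Of 146 measured, 25 (17.1%) had an unadjusted p under the threshold, 23 with a difference above 0 and 2 below, beside 3.91% of all genes. Their median difference was 0.020, and 16 of them (10.96%) had a difference above 0 in all 4 blocks, beside 3.53% of all genes. Genes of the moulting cycle, which oscillate as each cuticle is replaced, had the third largest share. Of 136, 16 (11.8%) had an unadjusted p under the threshold, 14 above 0, and the median was 0.026. The patched-related gene ptr-11 had the smallest p after grl-16, at 0.21 ± 0.056 (SE). Glycolysis and central carbon had 5 of 40 (12.5%), all above 0, including pyc-1, pyruvate carboxylase, at 0.20 ± 0.062 (SE) and 0.12 ± 0.060 (SE) without F4 birth day 1, and the aconitase gene aco-2 at 0.12 ± 0.043 (SE). These members did not pass after adjustment.

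Genes of moulting and collagens oscillate with larval time, and a whole-animal RNA sample cannot tell fewer cells of a type from less RNA per cell. Without F4 birth day 1 the median of cuticle collagens was 0.0076 and that of the moulting cycle 0.052, beside 0.0069 over all genes. Of the collagens 28.8% then had an unadjusted p under the threshold, beside 8.2% of all genes. The share was larger in oocyte and eggshell genes, at 19 of 24 (79.2%), and in sperm genes, at 32.7%, and it was 22% in germline genes. Over all 4 blocks these shares were 0%, 1.82% and 2.44%. Among the blocks kept, F4 birth day 2 called 23 oocyte and eggshell genes lower, while the F5 blocks called 0. Of the sperm genes, F4 birth day 2 called 1 higher and 3 lower, and the F5 medians were -0.089 and -0.050. List shares with F4 birth day 2 left out instead were not computed. Which blocks the shares rest on was not tested, and they are not read as common to both generations.

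The metabolic and longevity lists described next had medians from -0.041 to 0.013, beside -0.0062 over all genes. Lipid metabolism had a median of 0.013, with the fatty acid transporter gene acs-22 at 0.19 ± 0.066 (SE). The respiratory chain had a median of 0.0067 over 48 genes, with nuo-5, a complex I subunit gene, at 0.13 ± 0.040 (SE). Targets that the insulin-regulated factor DAF-16 raises had a median of 0.0059 over 18 genes and 0 had an unadjusted p under the threshold. The isocitrate lyase gene icl-1, 1 of these targets, differed by 0.086 ± 0.055 (SE). Insulin signalling genes had a median of -0.013 over 34 genes, and heat shock and chaperone genes -0.0069 over 59. Targets that DAF-16 lowers had a median of -0.041 over 13 genes, of which 23.1% had a difference above 0, beside 45.1% of all genes. Longevity and intestinal transcription factors had a median of 0.00083 over 27. Dauer and arrest genes had -0.010 over 30, and heterochronic timing genes -0.0076 over 16.

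Detoxification, immune and other families gave medians between -0.023 and -0.0047. They were 70 cytochrome P450 genes, with cyp-35A5 at 0.17 ± 0.050 (SE) and cyp-35A2 at 0.18 ± 0.065 (SE), 225 C-type lectin genes, with clec-229 at 0.29 ± 0.10 (SE), and 254 nuclear hormone receptors at the lower end. Glutathione S-transferases, F-box A genes, UDP-glucuronosyltransferases and lysozymes had medians of -0.011, -0.0066, -0.0049 and -0.0047. Ribosomal proteins had a difference below 0 in all 4 blocks for 12 of 75 (16%), beside 4.23% of all genes. Their sizes were small, with rla-2 at -0.052 ± 0.023 (SE) and rpl-22 at -0.053 ± 0.024 (SE), and the median was -0.0083. Tissue lists of muscle, neuron, intestine and pharyngeal cells had medians of 0.011 to 0.017, with the actinin gene atn-1 at 0.13 ± 0.051 (SE) and cpr-6, an intestinal cathepsin B gene, at 0.13 ± 0.040 (SE).

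**Figure D3:**
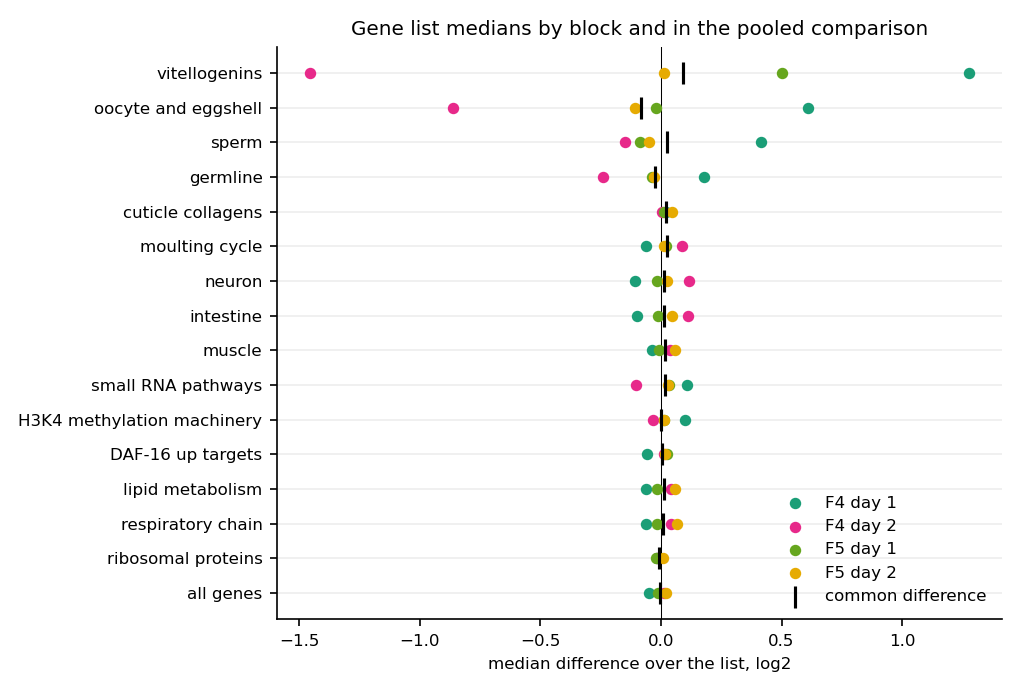
Median difference (log2, descendants minus controls) of 15 gene lists and of all genes in each block (coloured points) and for the difference common to all blocks (black bars). Vitellogenin and oocyte genes lie on opposite sides of 0 in the F4 blocks, at 1.28 and -1.46 and at 0.61 and -0.86. Their common medians are smaller, at 0.089 and -0.082, beside -0.0062 over all genes.

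The ancestry difference was not the same in the 4 blocks. In a fit with a mean of its own for each group and block, 1224 probe sets (5.88%) had a difference that varied between blocks by an F test in limma. The count was 52 when the 12 mutant arrays shared the estimate of spread. In F4 birth day 1, 940 probe sets rose (4.52%) and 724 fell (3.48%) in descendants, and in F4 birth day 2, 366 rose (1.76%) and 394 fell (1.89%). With all 35 arrays in the fit the called totals were 155 and 48, and in fits of each block alone they were 111 and 213. In F5 birth day 1, 2 probe sets rose (0.00961%) and 0 fell, and in F5 birth day 2, 0 rose and 0 fell (0%), with 786 at an unadjusted p under the threshold.

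The called genes of the F4 blocks ran in opposite directions on the birth days. Counted as genes, 1451 were called on day 1 (4.66% of all genes higher, 3.76% lower) and 643 on day 2 (1.77% higher, 1.95% lower), and 252 on both, which are 17.4% of the first and 39.2% of the second. All 252 had opposite signs, 187 of them above 0 on day 1 and below 0 on day 2 and 65 the reverse. The blocks share no arrays. The F4 difference changed between birth days for 2523 probe sets (12.1%) and the F5 difference for 2 (0.00961%), and the change itself differed between generations for 612 (2.94%). Averaged over generations, the difference was higher on day 1 for 376 probe sets (1.81%) and lower for 428 (2.06%). A contrast of the F4 mean with the F5 mean called 0, with 1004 at an unadjusted p under the threshold.

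Of the 33 lists, oocyte and eggshell genes had the largest share of members that varied between blocks. The genes oma-1 and oma-2 encode zinc finger proteins of maturing oocytes, and vitellogenins are the yolk proteins that the adult intestine makes. In F4 birth day 1, oma-2 read 7.36, 6.91 and 7.28 in controls and 8.21, 7.62 and 7.41 in descendants. On birth day 2 of F4 it read 8.49, 7.74 and 8.001 against 6.98, 7.06 and 7.04. Descendants lay higher on day 1 and lower on day 2 without overlap. Differences were 0.57 and -1.05 in F4 and -0.090 in F5 birth day 1 for oma-2, and they varied between blocks (adjusted p = 0.0021, F test in limma). In F5 birth day 2 the mean of oma-2 was 6.70 in controls and 6.495 in descendants. The common difference of oma-2 was -0.20 ± 0.15 (SE), and -0.48 ± 0.13 (SE) without F4 birth day 1, with F4 birth day 2 then the only F4 block.

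Of the 24 oocyte and eggshell genes, 22 varied between blocks (91.7%), beside 6.17% of all genes. In F4 birth day 1, 17 rose and 0 fell with a median of 0.61, beside 4.66% of all genes that rose. On day 2 of F4, 0 rose and 23 fell with a median of -0.86, beside 1.95% of all genes that fell. The F5 medians were -0.023 and -0.11 with 0 called. Of 55 sperm genes 29 rose in F4 birth day 1 (median 0.41), and 1 rose and 3 fell in F4 birth day 2 (median -0.15). The 6 vitellogenins had medians of 1.28, -1.46, 0.50 and 0.014 in F4 birth days 1 and 2 and F5 birth days 1 and 2, of which 2 rose in the first block, 0 were called in the others and 2 varied between blocks. Of 41 germline genes 4 rose in F4 birth day 1 and 6 fell in F4 birth day 2. Over all 4 blocks the common median was -0.082 for oocyte genes and 0.089 for vitellogenins. Of the oocyte genes 4.17% had a common difference above 0, beside 45.1% of all genes. Without F4 birth day 1 the common median was -0.35 for oocyte genes and -0.37 for vitellogenins. The only F4 block then kept was birth day 2, with medians of -0.86 and -1.46.

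These genes also bear on the labelled stage. Vitellogenins and oocyte genes are known from the adult and the last larval stage, and they were not absent from the arrays. The mean level of the vitellogenin list was 8.62 to 9.39 in controls and 9.92 to 10.84 in descendants of F4 birth day 1, and in F4 birth day 2 it was 10.31 to 11.47 in controls, with all 3 descendants lower, at a median of 9.24. It was 6.76 to 9.58 over all F5 arrays. F4 groups did not overlap within a day, while F5 groups did. The array medians were 5.35 to 5.50. With the mean of oocyte and vitellogenin genes on each array as a covariate, 7 probe sets varied between blocks, and 17 and 0 were called in the F4 blocks. The covariate also widened the errors: for the probe sets called in F4 birth day 1, the median size of the difference went from 0.44 to 0.35 and the median standard error from 0.11 to 0.14. Within an F4 block the groups do not overlap in these genes, so stage and ancestry cannot be told apart there. With the covariate the common ancestry difference still called 0, with 1357 at an unadjusted p under the threshold.

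**Figure D4:**
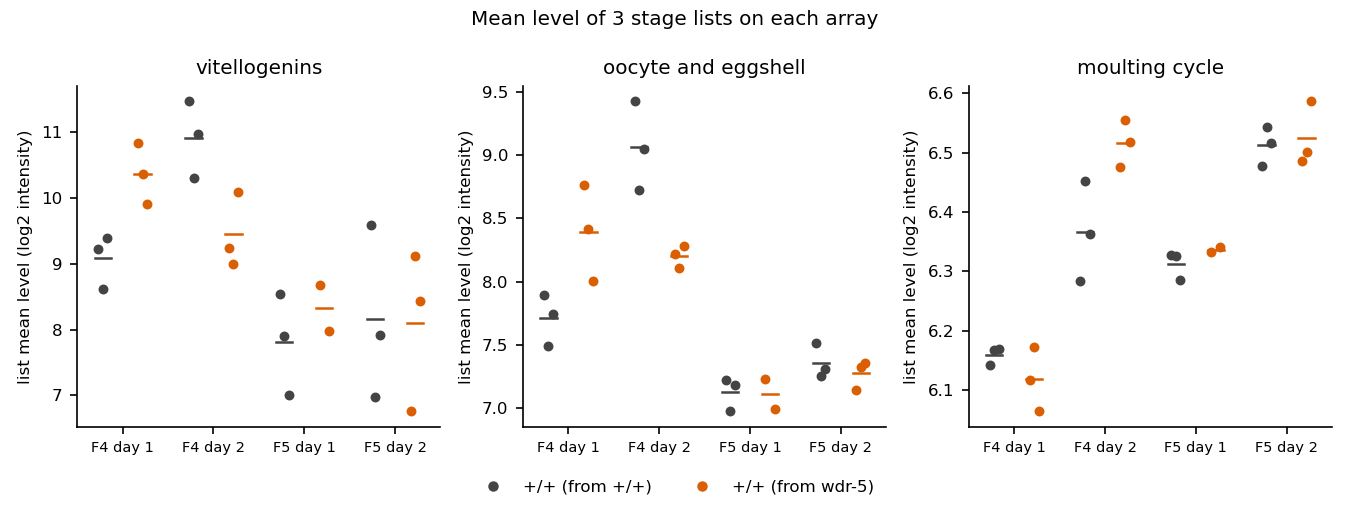
Mean level (log2 intensity, axes not starting at 0) of the vitellogenin, oocyte and eggshell, and moulting cycle lists on each control (grey) and descendant (orange) array by generation and birth day; bars are means. In F4 the descendants have the higher vitellogenin and oocyte means on day 1 and the lower ones on day 2.

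The genes whose difference varied most between blocks were largely of 2 kinds. F54F7.3, F55B11.2, C10C5.3 and sip-1, a small heat shock protein gene, were higher in descendants of F4 birth day 1 and lower in those of day 2, with differences of 1.02 to 1.85 and of -1.50 to -1.03. For F54F7.3 the F5 levels were 3.72 to 4.80 against 5.47 to 9.098 in F4, and its F5 groups overlapped. These F5 levels lay near the 25th percentile of the arrays, 3.71 to 3.95 on day 1 and 4.52 to 4.66 on day 2. The signal there limits what the F5 overlap can show. The gene Y48E1B.8 ran the other way, at -0.73 and 0.81. The remaining genes were sax-2, fbxa-192, fbxa-193, ztf-28 and the dim probe set of B0207.9.

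On birth day 2 alone, with both generations together, 7 probe sets were called (0.0336%), for 6 genes. They were sax-2, which encodes a Furry family protein that shapes neurites, the F-box genes fbxa-192 and fbxa-193, the zinc finger gene ztf-28, T05A12.4 and F21E9.2. The last 2 were chosen for description after their values were seen. All 6 had the same sign in F4 and F5 on that day. The genes were called from these same arrays, so the choice favours this agreement and the gaps between groups described next. T05A12.4 ran from 5.38 to 6.004 in day 2 controls and from 5.94 to 6.59 in day 2 descendants. F21E9.2 ran from 4.50 to 4.98 and from 4.93 to 5.39. The groups of both genes overlapped over F4 and F5 together. Within each generation every day 2 descendant lay above every day 2 control in both genes.

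The level of sax-2 on birth day 2 was 5.94, 6.02 and 5.99 in F4 controls, 6.59, 6.64 and 6.59 in F4 descendants, 6.11, 6.05 and 6.27 in F5 controls, and 6.50, 6.59 and 6.71 in F5 descendants. All 6 descendants lay above all 6 controls. The day 2 difference of sax-2 was 0.54 ± 0.065 (SE, adjusted p = 0.0019, limma). On birth day 1 the F4 descendants read 5.98, 6.07 and 6.04, where the other 8 wild-type arrays of that day lay at 6.66 to 6.84. The difference there was -0.71 in F4 and -0.027 in F5. Mutants lay above these controls by 0.75 ± 0.10 (SE).

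The F-box gene fbxa-192 mirrored this. On birth day 2 its controls lay at 5.49 to 6.12 (n = 6) and its descendants at 4.97 to 5.18 (n = 6), without overlap, with a difference of -0.74 ± 0.085 (SE, adjusted p = 0.0019, limma). On birth day 1 the F4 descendants lay at 5.44 to 5.91 and the other 8 arrays at 4.11 to 4.92. For fbxa-193 the day 2 difference was -0.43 ± 0.046 (SE, adjusted p = 0.0011, limma), with controls at 4.49 to 4.84 and descendants at 4.22 to 4.32. On day 1 it read 4.29 to 4.98 in F4 descendants against 3.45 to 3.85 in the rest. The zinc finger gene ztf-28 had day 2 controls at 5.65 to 6.13 and descendants at 5.27 to 5.48, which did not overlap. Its F4 descendants of day 1 read 5.63 to 5.88 and the other 8 arrays 4.79 to 5.11.

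In sax-2, the 3 F4 descendants of birth day 1 lay within the range of the birth day 2 controls, while the other 8 wild-type arrays of birth day 1 lay higher, as the birth day 2 descendants did. Tables of the days differ at low intensities, so levels of fbxa-193 across days are not comparable. Over all 23 arrays the differences were 0.090 ± 0.11 (SE) for sax-2, -0.12 ± 0.17 (SE) for fbxa-192, 0.011 ± 0.13 (SE) for fbxa-193 and -0.11 ± 0.12 (SE) for ztf-28, none past the threshold. Without the F4 birth day 1 block they were 0.38 ± 0.077 (SE), -0.55 ± 0.093 (SE), -0.31 ± 0.058 (SE) and -0.39 ± 0.084 (SE), and no probe set passed. The group labels of the 6 arrays of that block cannot be checked through wdr-5.1, which is intact in both groups, and whether they were exchanged was not tested. An exchange would turn the sign of every F4 birth day 1 difference, of the 252 genes with opposite signs among them, and would change the common differences. The labels were kept as given.

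**Figure D5:**
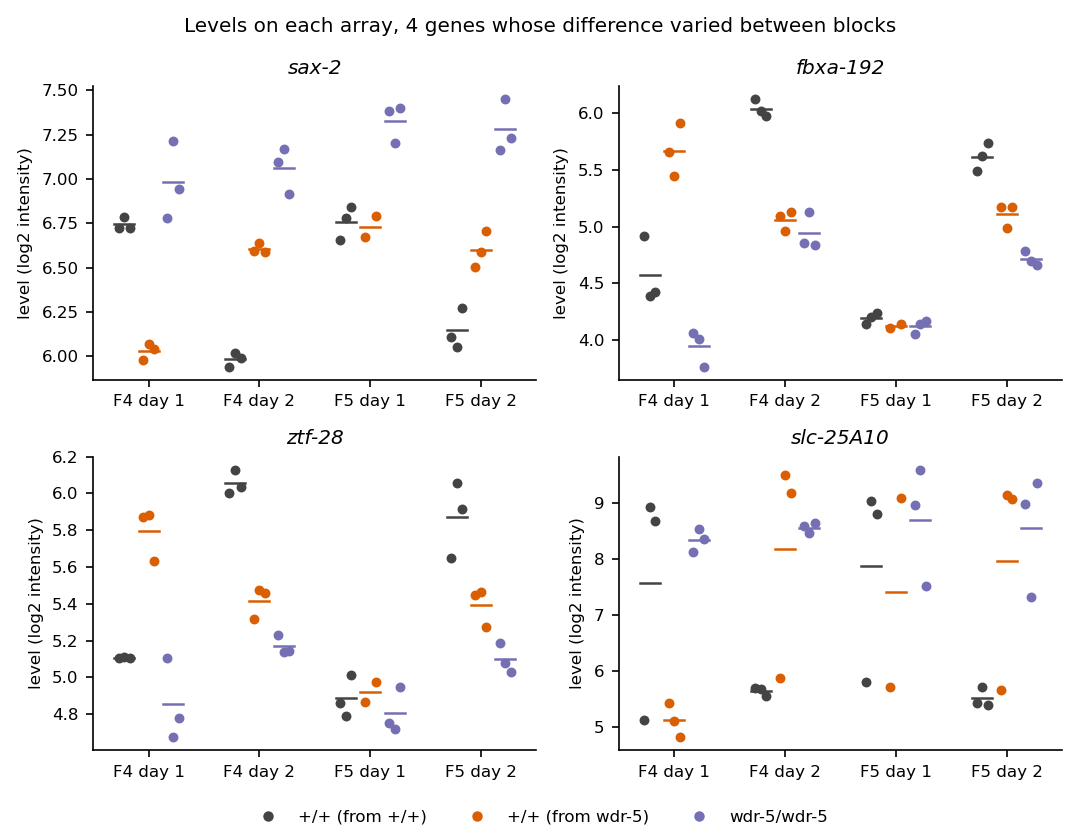
Level (log2 intensity, axes not starting at 0) of sax-2, fbxa-192, ztf-28 and slc-25A10 on each control (grey), descendant (orange) and mutant (violet) array by generation and birth day; bars are means. In sax-2 the 3 F4 descendants of day 1 lie at 5.98 to 6.07, below the other 8 wild-type arrays of that day, while on day 2 all 6 descendants lie above all 6 controls.

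The probe sets called in F5 birth day 1 were a pair with the same values for let-2 (0.0058% of genes), which encodes a type IV collagen chain of basement membranes. In that block let-2 read 9.49, 9.55 and 9.54 in controls and 10.14 and 10.19 in descendants, without overlap. The difference was 0.64 (adjusted p = 0.012, limma) there, and 0.11, 0.12 and -0.14 in F4 birth days 1 and 2 and F5 birth day 2, where let-2 was not called. The call was lost without F5 control replicate 1, F5 descendant replicate 1 or F5 descendant replicate 2, each of which left 0 probe sets called in the block.

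Genes ranked in 1 generation were read in the other, which shares no arrays with it. Sharing no arrays does not make the generations independent. Deviations of same-numbered F4 and F5 arrays correlated at -0.12 to 0.37 across probe sets, 8 of 11 above 0. The labels do not say what these numbers share, and no fit linked the arrays of F4 and F5. Of the 100 probe sets of smallest p in F4, 73 had a difference above 0, and in F5 58 of these 73 (79.5%) were above 0 as well, with a median of 0.042, beside 55.9% of all probe sets. Of the 27 below 0 in F4, 12 were below 0 in F5 (44.4%, beside 44.1% of all). Of the 100 of smallest p in F5, 31 of 60 above 0 (51.7%, beside 39.8% of all) and 20 of 40 below 0 (50%, beside 60.2% of all) kept their sign in F4. Across all probe sets the F4 and F5 differences had the same sign for 51.3%, with r = 0.059, a description across transcripts that are not independent and that share the array and its stage.

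Of 7 genes with large mutant differences, 0 passed the threshold for the common difference in descendants. Mutants were compared with the same controls, so both differences share those arrays, and 3826 probe sets rose (18.4%) and 4449 fell (21.4%) in mutants over both generations. The lysozyme gene lys-10 was below the 25th percentile on all 23 wild-type arrays, so no descendant difference is read for it, and its difference of 3.34 in mutants may understate the change. Y49E10.4 differed by -1.90 ± 0.076 (SE) and -0.024 ± 0.057 (SE). The infection response gene irg-4 differed by -1.77 ± 0.11 (SE) and 0.10 ± 0.098 (SE), the latter 0.19 ± 0.088 (SE) without F4 birth day 1, and asp-12, an aspartyl protease gene, by -1.64 ± 0.18 (SE) and -0.030 ± 0.10 (SE). The lipid-binding gene far-3 differed by 2.01 ± 0.13 (SE) and 0.18 ± 0.081 (SE), and dod-3, a target of DAF-16, by 1.91 ± 0.17 (SE) and 0.13 ± 0.085 (SE). The desiccation protein gene lea-1 rose by 1.79 ± 0.12 (SE) in mutants. In descendants lea-1 differed by 0.68 in F4 birth day 1 and -0.59 in F4 birth day 2, with a common difference of 0.068 ± 0.11 (SE), and -0.15 ± 0.10 (SE) without F4 birth day 1.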

How the data were processed

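The series measured biotin-labelled RNA of whole L3 larvae on 35 single-colour arrays, 23 of them used for the ancestry comparison. Per the submitters' processing notes the authors made the deposited log2 values by RMA, robust averaging over the probes of a set. Its version is not given in the sources used here. The log base, 2, was inferred from how far the values reach. Because low values differ between the tables of each birth day, separate normalization was assumed. The number of arrays limits the precision.

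All 20806 probe sets other than 77 controls were tested, with no filter. Names came from a RefSeq gene table of assembly WBcel235, by accession for 15504 and by symbol for 4660. The deposited name was kept for 523, and 119 had none. Identical values of another probe set were held by 1937, and 127 with identical values under several names were not named. For each of 17241 genes the brightest probe set stood for the gene.

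The R package limma 3.58.1 (R 4.3.3) fitted the differences by lmFit, and eBayes let the prior variance follow intensity. The fit held 1 ancestry term and the 4 blocks, with 18 residual degrees of freedom. A fit with 8 means gave the differences within blocks and between blocks, generations and birth days (residual degrees of freedom, 15). Mutant differences came from all 35 arrays (29). All tests were two-sided with Benjamini-Hochberg adjustment over all probe sets. The fits were tested on simulated data. Alternatives changed the samples, blocks, weights, trend, normalization, filter on dim probe sets, representative probe set, stage covariate and replicates left out.

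The genes to name followed from a rule: the largest calls or, with under 10 in a direction, the 10 of smallest p with 1 sign in all 4 blocks, the H3K4 genes, the 2 members of smallest p of each of 33 lists, the 10 of smallest p between blocks, genes apart in all 4 blocks and 7 genes large in mutants. The genes slc-25A10, T05A12.4, F21E9.2, let-2, K11H12.4 and mam-2 were added after their values were seen. The comparison and the gene lists were chosen with earlier results of these data known.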

Additional observations from a re-analysis of the deposited data

Results flagged for a closer look

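Differences between blocks were flagged because a test of the difference itself passed the threshold. The ancestry difference varied between the 4 blocks for 1224 probe sets by the F test, it differed between birth days for 804, and within F4 it differed between birth days for 2523. Among the genes named here, the adjusted p of the F test in limma was 1.34e-06 for sax-2 and for fbxa-192, 1.13e-05 for F54F7.3, 3.70e-05 for ztf-28, 6.37e-05 for fbxa-193 and 8.41e-05 for B0207.9. It was 2.02e-04 for F55B11.2, Y48E1B.8 and sip-1, 2.23e-04 for C10C5.3, 2.46e-04 for T05A12.4 and 4.11e-04 for lea-1. It was 0.0021 for oma-2, 0.0040 for let-2, 0.0059 for oma-1, 0.0088 for asp-12 and 0.030 for F21E9.2.

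Single arrays far from the others of their group were flagged by the gap to the nearest array over the range of the group, after centring each block. Chance flags about 1 in 20 groups, and 18 of 304 groups of values were flagged here (5.92%). In F4 controls the gap was 0.771 for nhl-1 (replicate 6 high), 0.629 for Y66D12A.21 (replicate 4 high), 0.653 for lsd-1 (replicate 3 low), 0.871 for nrde-2 (replicate 6 high), 0.706 for acs-22 (replicate 4 low) and 0.819 for K11H12.4 (replicate 4 high). In F4 descendants it was 0.639 for cwf-19L1 (replicate 5 low). In F5 controls it was 0.63 for appg-1 (replicate 4 low), 0.634 for srv-10 (replicate 6 high), 0.659 for lea-1 (replicate 1 high) and 0.629 for F21E9.2 (replicate 1 high). In F5 descendants it was 0.754 for wdr-5.1, 0.812 for jmjd-1.2 and 0.757 for acs-22, all with replicate 6 high. There it was also 0.747 for F54F7.3 and 0.772 for F55B11.2 (replicate 4 low), 0.774 for lys-10 (replicate 1 high) and 0.747 for Y49E10.4 (replicate 5 low).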

How the results depend on the processing

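The count of 0 for the common ancestry difference was the same without blocks, with the replicate number as a block, with array weights, a robust prior, each block left out, F4, F5 or birth day 1 alone, both normalizations, either covariate and each array left out, and birth day 2 alone called 7. Same-numbered arrays deviated together with r of -0.19 to 0.32 over 11 pairs, 5 above 0.1, and 3 correlated best with their own number, so the numbers were not taken to pair the samples; with the replicate block 0 were called. With all 35 arrays, 52 probe sets varied between blocks, 13 differed between birth days, and 155 and 48 were called in F4 birth days 1 and 2. With the stage covariate these were 7, 4, 17 and 0, with 2 between generations and 4 in F5 birth day 1. Fits of each block alone called 111 and 213 in the F4 blocks. F5 birth day 2 gave 3 without the intensity trend, 1 after quantile normalization over all arrays and 3 without dim probe sets. Leaving out 1 array gave 729 (without F4 descendant replicate 1) to 1717 (without F4 control replicate 3) between blocks, 344 (without F5 descendant replicate 1) to 1196 (without F4 control replicate 5) between days and 0 to 2 between generations. It gave 501 (without F4 control replicate 2) to 2758 (without F4 control replicate 3) in F4 birth day 1, 98 (without F4 control replicate 4) to 1324 (without F4 control replicate 5) in F4 birth day 2, 0 to 4 in F5 birth day 1 and 0 to 1 in F5 birth day 2. The cause of these moves was not tested. The alternatives within blocks were chosen after seeing the data. Of 876 values of the 20 genes chosen for 1 sign in all 4 blocks, 0 passed (smallest adjusted p 0.2571). Of 4561 values of the genes named by the rule, 4367 kept their sign and 4 passed, all on birth day 2 alone, where the added genes T05A12.4 and F21E9.2 passed as well. These values come from refits that share arrays with the main fit, many with 1 array left out, so kept signs are no separate support. With the stage covariate, quantile normalization over all arrays or all probe sets of a gene, 1 list median moved, that of vitellogenins, from 0.089 to 0.18 with the covariate. The covariate is the mean of the vitellogenin and oocyte genes themselves, so it is no separate check on those lists. Without F4 birth day 1 the medians of vitellogenins, oocyte, sperm and germline genes moved to -0.37, -0.35, -0.097 and -0.087.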

Other observations

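The transcript with the largest common difference, slc-25A10, which is named for the mitochondrial dicarboxylate carriers, had 2 levels among the wild-type arrays and was chosen after its values were seen. In F4 controls it read 5.12, 8.93, 8.68, 5.69, 5.68 and 5.54 in replicates 1 to 6, and in F5 controls 5.80, 9.04, 8.81, 5.42, 5.71 and 5.38. In F4 descendants it read 5.41, 5.099, 4.81, 5.87, 9.51 and 9.19, and in F5 descendants 5.71, 9.097, 5.66, 9.15 and 9.07 in replicates 1, 2, 4, 5 and 6. No wild-type array lay between 5.87 and 8.68, and 4 of 12 controls and 5 of 11 descendants were high. Arrays of the same group and replicate number in F4 and F5 were on the same side in 10 of 11 pairs. All 12 mutants lay at 7.32 or above. The common difference of slc-25A10 was 0.57 ± 0.68 (SE, adjusted p = 0.9954, limma). The source of the 2 levels was not tested.

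Among the other widest differences, K11H12.4 was at -0.33 ± 0.085 (SE) and mam-2 at 0.32 ± 0.090 (SE), both chosen after their values were seen and neither past the threshold. Over the whole array, deviations of same-numbered F4 and F5 arrays from their group and block had correlations across probe sets of -0.12 to 0.37, with a median of 0.069, and 8 of 11 were above 0.

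Some named genes of tissues and regulators had wider differences than their lists and did not pass. The neuropeptide gene flp-27 differed by 0.24 ± 0.089 (SE), the meiotic gene him-17 by 0.17 ± 0.060 (SE) and the major sperm protein gene msp-74 by 0.21 ± 0.12 (SE), the last -0.015 ± 0.11 (SE) without F4 birth day 1. The intestinal proton pump gene vha-6 differed by 0.097 ± 0.040 (SE), the hypoxia factor gene hif-1 by 0.11 ± 0.074 (SE) and the heterochronic gene dre-1 by 0.087 ± 0.058 (SE).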
